A study of Macaca fascicularis with 4 samples.

Results

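ABC transporters are membrane and cytosolic proteins that share an ATP-binding cassette. They were examined here as a gene family in full-length RNA libraries from liver, from muscle and from oWAT and sWAT of the cynomolgus monkey (Macaca fascicularis). The members were chosen as gene names made of ABC, a subfamily letter from A to G and a number; 40 names had this form, and 39 of the 13982 genes in the files are covered here. The abbreviations oWAT and sWAT are not explained in the labels; WAT commonly stands for white adipose tissue. The labels give no age, sex, genotype or treatment. For each tissue the RNA of 5 monkeys was combined into 1 library, so the 4 libraries have no replicates and no difference between tissues could be set against the spread between animals.

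Most ABC proteins use ATP to move a substrate across a membrane. Members of subfamilies A and G are known for lipid and sterol export, those of B and C for drugs, conjugated metabolites and mitochondrial cargo, and those of D for fatty acids entering the peroxisome. Subfamilies E and F carry the ATP-binding cassettes without a membrane domain and act on ribosomes. In the liver, family members at the canalicular face of the hepatocyte load bile with sterols, conjugates and xenobiotics. In adipose tissue and macrophages, the family is known for the transfer of cholesterol to lipoproteins.

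Counts assigned to genes totalled 383896 to 439872 per library, and values are given as counts and, scaled to the library total, as counts-per-million (CPM). A single count is worth 2.27 to 2.60 CPM, and the limit that a count of 0 allows, 3 counts, is 6.82 to 7.81 CPM. A fold is the ratio of CPM with an exact 95% binomial (Clopper-Pearson) interval from the pair of counts. The word called is used for a difference whose higher side held 10 counts or more and whose fold interval began above 2; with several libraries, each pairing had to meet both conditions. All intervals cover counting error only, and no p-values were computed. Shares of all genes called are out of genes with at least 10 counts in each higher library. Gene lists are counted over measured genes, those with at least 10 counts summed over the 4 libraries, so the bases differ. The labelled tissues were checked against marker genes. The 10 hepatocyte markers summed to 180026 CPM in liver and to at most 7.56 CPM elsewhere, and the 7 myofibre markers to 99445 CPM in muscle and to at most 130 CPM elsewhere. The 7 adipocyte markers summed to 8591 CPM in oWAT and 9456 CPM in sWAT, against 57.1 CPM in liver, where PLIN1, CIDEC and LEP were at 0, and 696 CPM in muscle, where CIDEC was at 0. In tissue RNA, fewer cells of a type and less RNA per cell cannot be told apart.

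Of the 39 members, 29 had at least 10 counts in at least 1 library. The other 10 stayed below that in every library. ABCA2, known from nervous tissue, had 2 to 7 counts, the retinal ABCA4 0 to 3, ABCA12 of the skin barrier 0 or 1, and ABCA13 0 to 3. ABCB8 of the mitochondrion had 2 to 8 counts and the lysosomal peptide transporter ABCB9 0 to 4. ABCC8 had 0 to 5, ABCC10 5 to 8 and ABCC11 and ABCG4 0 or 1. Counts in all 4 libraries were found for 26 members (66.7%), close to the 63.7% of all genes. Members with counts in a single library numbered 7: ABCA13, ABCC2, ABCC11, ABCG5 and ABCG8 in liver, ABCA12 in oWAT and ABCG4 in sWAT. Of these, ABCA13 had 3 counts in all, and ABCC11, ABCA12 and ABCG4 had 1 each. The matching share of all genes is not given here, so the 7 cannot be read as particular to the members. Of the 29, liver gave the highest CPM for 11, muscle for 8, oWAT for 3 and sWAT for 7. Of the 32 members with at least 10 counts in all, liver led for 12 and muscle for 8, with 0.5 counts added. Of the 10127 genes measured, liver led for 16.1% and muscle for 20.5%. These leads rest on library totals, and that of ABCE1 passed from muscle to liver with TMM.

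**Figure D1:**
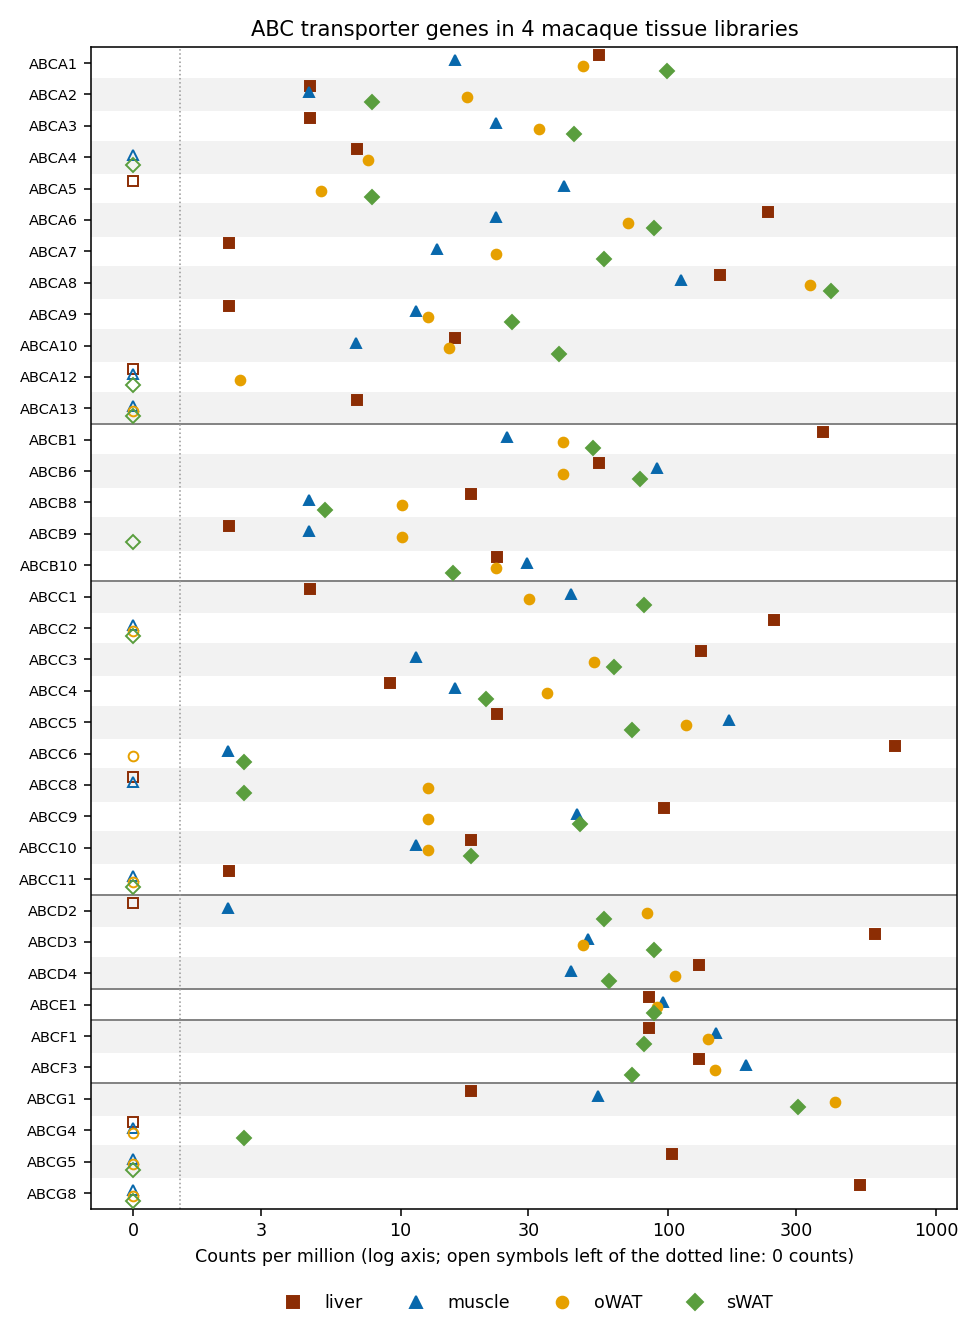
CPM (log axis) of 37 ABC members, 1 symbol per library, with subfamilies separated by lines and open symbols for 0 counts. The liver squares of ABCC6 (704 CPM), ABCD3 (592 CPM) and ABCG8 (521 CPM) lie far to the right of the other libraries, while the 4 symbols of ABCE1 lie together.

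Summed over the 39 members, liver held 1721 counts (3933 CPM, exact Poisson interval 3749 to 4123) and muscle 614 (1396 CPM, 1288 to 1511). The oWAT sum was 822 counts (2072 CPM, 1932 to 2218) and the sWAT sum 775 (2019 CPM, 1879 to 2166). Family members under other names, such as TAP1 and TAP2, are outside these sums and the subfamily shares below. TAP1 reached 48 counts for oWAT, 36 for muscle, 31 for sWAT and 16 for liver, and TAP2 at most 4. The liver sum was 2.82-fold that of muscle (2.57 to 3.09), 1.90-fold that of oWAT (1.75 to 2.07) and 1.95-fold that of sWAT (1.79 to 2.12); the TMM scaling of edgeR, a trimmed mean of log ratios, put the fat ratios at 3.81 and 3.53. The oWAT sum was 1.48-fold and the sWAT sum 1.45-fold that of muscle; with TMM these ratios were 1.004 and 1.09. The 6 members called higher in liver, described below, made up 64.7% of the liver's ABC counts (62.4 to 67.0) and 4.26% to 7.10% elsewhere. Without them, 1387 CPM were left in liver, against 1319 for muscle, 1983 for oWAT and 1876 for sWAT; those 6 were chosen by these values, so the remainder is a description. That remainder was 0.699 times the oWAT level in liver with library totals and 1.40 times with TMM.

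The subfamily makeup of the 39 members differed between libraries, and shares within a library do not depend on the scaling between libraries. They are shares of reads, and transcript length was not used. In liver, the ABCC genes took the most, 31.5% of the ABC counts (exact interval 29.3 to 33.7), followed by ABCD with 19.0% (17.2 to 20.9) and ABCG with 16.3% (14.6 to 18.2). In muscle, the ribosome-associated ABCF genes had the most with 24.8% (21.4 to 28.4), followed by ABCC with 21.3% (18.2 to 24.8), and these intervals overlap. There, ABCG genes had 3.91% (2.52 to 5.76). In oWAT and sWAT, ABCA genes led with 27.6% (24.6 to 30.8) and 38.5% (35.0 to 42.0), against 12.4% in liver (10.9 to 14.1) and 17.9% in muscle (15.0 to 21.2). ABCG genes followed in oWAT with 20.2% (17.5 to 23.1), and ABCG and ABCC genes in sWAT with 15.2% each (12.8 to 18.0). Within the ABCG share the genes were not the same: ABCG8 gave 81.1% of it in liver, and ABCG1 gave 100% in oWAT and 99.2% in sWAT. A share also depends on the counts of the other subfamilies, so shares do not give levels. With library totals, the ABCA sum in liver was 0.85 times that in oWAT (0.71 to 1.03) and 0.63 times that in sWAT (0.53 to 0.75). With TMM these ratios were 1.72 and 1.14.

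**Figure D2:**
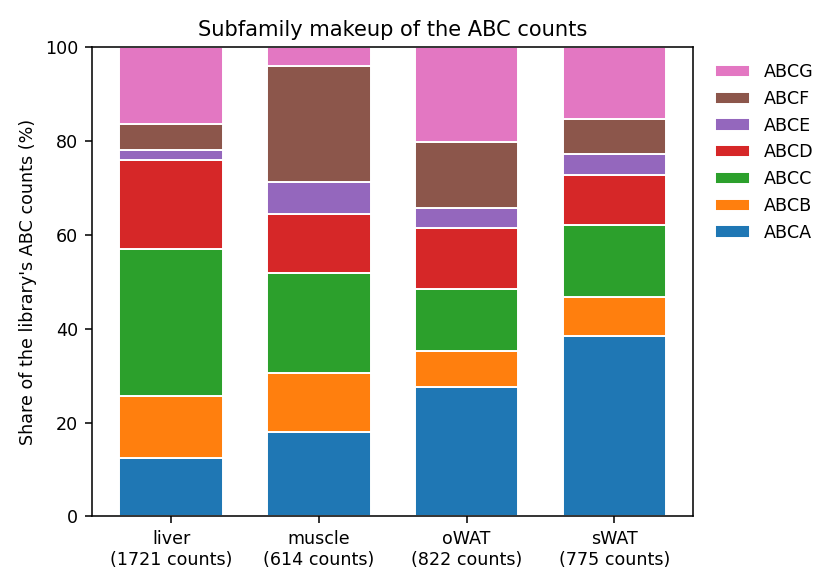
Stacked bars give, for each library, the share of its ABC counts (%) in subfamilies ABCA to ABCG, with the number of ABC counts under each bar. ABCC is the widest band in liver (31.5%), ABCF in muscle (24.8%) and ABCA in oWAT (27.6%) and sWAT (38.5%).

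Liver was the tissue with the most members set apart. Among the 20 members that reached 10 counts there, 6 exceeded all 3 other libraries: ABCB1, ABCC2, ABCC6, ABCD3, ABCG5 and ABCG8. Over all genes, the same rule called 10.8%. The median log2 ratio of liver to the highest of the other libraries was -0.65 over the 32 members with at least 10 counts in all, and -1.34 over the 10127 genes measured. Of 13 members that could be called below all 3 others in liver, 0 were; over all genes this was 11.8%.

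The sterol pair had counts in liver alone. ABCG5 and ABCG8 encode the subunits of a heterodimer that secretes cholesterol and plant sterols into bile. ABCG8 had 228 counts in liver (521 CPM) against 0 elsewhere, at least 66.7-fold higher relative to sWAT. ABCG5 had 45 counts in liver (103 CPM) against 0 elsewhere, at least 13.2-fold higher relative to sWAT. Both "at least" folds stand against the limit of 3 counts per library, and the exact lower bounds were 53.8 and 10.3. ABCG8 made up 83.5% of the reads of the pair in liver (78.6 to 87.7). The genes neighbour each other in the RefSeq gene table of the assembly T2T-MFA8v1.1, which was used for gene order only.

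Among the export pumps for conjugates and drugs, ABCC2, ABCC6 and ABCB1 were called. ABCC2, which moves glucuronide and glutathione conjugates into bile, had 109 counts in liver (249 CPM) against 0 elsewhere, at least 31.9-fold higher relative to sWAT (lower bound 25.5). ABCC6, whose loss in humans leads to ectopic mineralisation (pseudoxanthoma elasticum), had 308 counts in liver (704 CPM) against 1 in muscle, 0 in oWAT and 1 in sWAT. Its ratio to sWAT was 270 (48.1 to 10707). ABCB1, the multidrug transporter P-glycoprotein, had 165 counts in liver (377 CPM) against 11 in muscle, 16 in oWAT and 20 in sWAT, 7.24-fold higher than in sWAT (4.54 to 12.2). It was low but counted in the other tissues, unlike ABCC2. P-glycoprotein is also known from endothelium; the 7 endothelium markers summed to 283 CPM in liver (5 of 7 with counts, CLDN5 and EMCN at 0), against 1068 CPM in muscle, 2208 CPM in oWAT and 3907 CPM in sWAT. Single markers did not all follow the sum, KDR having 17 counts in liver and 5 in muscle, and the part of endothelium in the ABCB1 values was not tested. In humans ABCC6 has near-identical pseudogene copies, and the sources used here do not say how shared reads were assigned.

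The remaining liver call was peroxisomal. ABCD3, the membrane protein PMP70, brings branched-chain fatty acids and bile acid intermediates into the peroxisome. It had 259 counts in liver (592 CPM) against 22 in muscle, 19 in oWAT and 34 in sWAT, 6.68-fold higher than in sWAT (4.66 to 9.86). All 6 liver calls held under each of the 3 other scalings, with a 99% interval and without a minimum count. Over all genes, the share called higher in liver rose from 10.8% to 15.6% with TMM and 15.4% with DESeq2.

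A further 3 members had their highest CPM in liver by a smaller margin and were not called. ABCA6, whose substrate is not well defined, had 103 counts in liver against 10 in muscle, 28 in oWAT and 34 in sWAT, 2.66-fold its sWAT level (1.79 to 4.04). ABCC3, the basolateral counterpart of ABCC2, had 58 counts in liver against 5 in muscle, 21 in oWAT and 24 in sWAT, 2.12-fold its sWAT level (1.30 to 3.57). Both gained the call with TMM, at 4.81-fold and 3.84-fold, and with DESeq2's size factors, at 4.64-fold and 3.70-fold. ABCC9, which encodes the sulfonylurea receptor SUR2 of ATP-sensitive potassium channels, had 42 counts in liver against 20 in muscle, 5 in oWAT and 18 in sWAT. Its ratio was 2.11 over muscle (1.21 to 3.80), 7.62 over oWAT (3.02 to 24.7) and 2.05 over sWAT (1.15 to 3.78), of which the oWAT pairing was called.

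**Figure D3:**
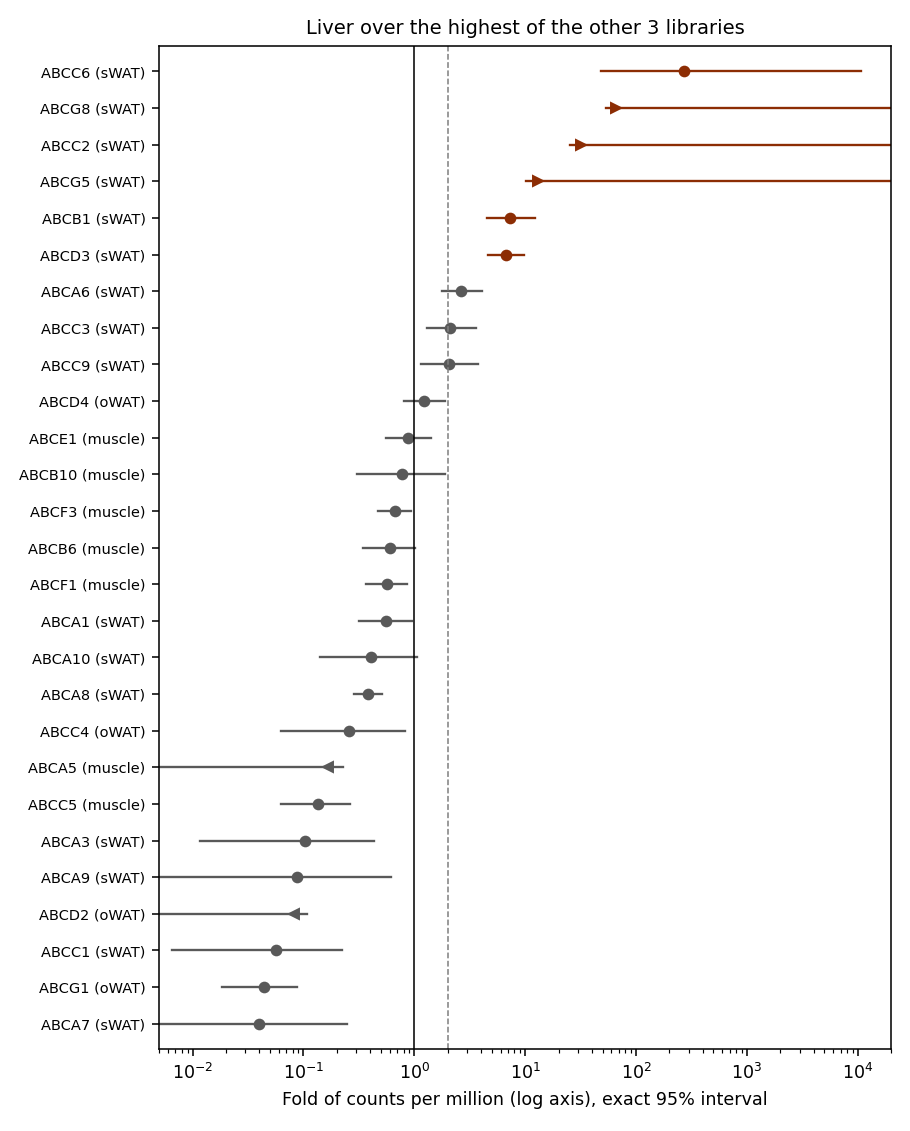
Fold of CPM in liver over the highest of the other 3 libraries (named in parentheses) on a log axis, for 27 members with at least 10 counts in a library; lines are exact 95% intervals that stop at the plot's edge, and triangles mark folds against 0 counts set to 3. The 6 called members (brown) have intervals wholly right of the dashed line at 2, from ABCD3 (6.68) to ABCC6 (270).

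In pairings with single libraries, 8 of 20 members were higher in liver than in muscle, where 17.7% of all genes were. Those 8 were the 6 above with ABCA6 (10.4-fold, 5.41 to 22.2) and ABCC3 (11.7-fold, 4.72 to 37.3). Likewise 8 of 20 exceeded oWAT (12.9% of all genes did), the 6 above with ABCA6 (3.34-fold, 2.18 to 5.26) and ABCC9. Against sWAT the 6 alone were called (13.6% of all genes were). With TMM 11 and with DESeq2 10 were, ABCC9 and ABCD4 being among those gained with both. These scalings multiplied the liver over sWAT fold of every gene, by 1.81 and 1.75. The matching shares of all genes are not given here, so the rise cannot be read as particular to the members. The median log2 ratio of members was 0.24 over muscle, 0.034 over oWAT and 0.027 over sWAT, where the medians of all genes measured were -0.48, -0.98 and -0.75.

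In the opposite direction, 3 of 17 members were lower in liver than in muscle (23% of all genes), 3 of 19 lower than in oWAT (25.8%) and 5 of 20 lower than in sWAT (24.2%). The members' shares are near or below those of all genes. The members were ABCA5, ABCC1 and ABCC5 against muscle, ABCC5, ABCD2 and ABCG1 against oWAT, and ABCA3, ABCA7, ABCC1, ABCD2 and ABCG1 against sWAT. ABCC1, an exporter of glutathione conjugates and leukotrienes, had 2 counts in liver against 19 in muscle, 12 in oWAT and 31 in sWAT, with a ratio to sWAT of 0.057 (0.0066 to 0.22). ABCC1 and ABCC6 are neighbours in the RefSeq table, and ABCC6 had its highest count in liver where ABCC1 had its lowest. ABCC5, which exports cyclic nucleotides and other organic anions, had 10 counts in liver against 74 in muscle, 46 in oWAT and 28 in sWAT, with a ratio to muscle of 0.14 (0.063 to 0.26). ABCA7, which moves phospholipids and takes part in phagocytosis, had 1 count in liver against 6 in muscle, 9 in oWAT and 22 in sWAT. ABCA3, the surfactant lipid transporter of the lung, had 2 counts in liver against 10 in muscle, 13 in oWAT and 17 in sWAT. With TMM and DESeq2 scaling, the calls of ABCC1 against muscle, ABCC5 against oWAT and ABCA3 against sWAT were lost.

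In the fat libraries, the transporters that stood out were ABCG1 and ABCD2. Of 16 members with at least 10 counts in both, these 2 exceeded liver and muscle in both fat libraries; over all genes the rule called 4.22%. ABCG1, which hands cholesterol to high-density lipoprotein, gave 166 oWAT counts (418 CPM) and 117 sWAT counts (305 CPM), against 8 in liver (18.3 CPM) and 24 in muscle (54.6 CPM). The lower of the fat libraries was 5.59-fold above muscle (3.58 to 9.07) and 16.7-fold above liver (8.19 to 39.5). ABCD2, a peroxisomal transporter of very-long-chain fatty acyl-CoA, gave 33 oWAT counts (83.2 CPM) and 22 sWAT counts (57.3 CPM), against 0 in liver and 1 in muscle. The ratio of sWAT to muscle was 25.2 (4.07 to 1040). Against the limit of 3 counts, sWAT was 8.36-fold above liver, with an exact lower bound of 6.24. Both calls held under each of the 3 other scalings, of which TMM left 1.23% and DESeq2 1.29% of all genes called.

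Macrophage markers, as a sum, were also higher in both fat libraries. The 8 macrophage markers summed to 1542 CPM in oWAT (8 of 8 with counts) and 1196 CPM in sWAT (8 of 8), against 535 CPM in liver (8 of 8) and 411 CPM in muscle (7 of 8, C1QA at 0). Of the 8, CD68 alone was called higher in both fat libraries, and MARCO had its highest count in liver: 12 for oWAT and 1 for sWAT, against 19 for liver and 3 for muscle. The adipocyte sums are given above. The part of either cell type in the ABCG1 and ABCD2 values was not tested.

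The cholesterol exporter ABCA1, which loads lipid onto apolipoprotein A-I, was not called in the comparison that ABCG1 passed. Its oWAT count was 19 (47.9 CPM) and its sWAT count 38, against 24 in liver (54.8 CPM) and 7 in muscle (15.9 CPM). It was called for sWAT over muscle alone, at 6.22-fold (2.74 to 16.5). ABCA8, linked to cholesterol efflux, was the ABCA gene with the most counts: 134 in oWAT (338 CPM) and 156 in sWAT (406 CPM), against 68 in liver (155 CPM) and 49 in muscle (111 CPM). It was 3.03-fold higher in oWAT than in muscle (2.17 to 4.30) and 3.65-fold higher in sWAT than in muscle (2.63 to 5.14). Its sWAT level was 2.61 times that of liver (1.95 to 3.53), which was not called. The ABCA8 call of oWAT over muscle was lost with each of the 3 other scalings, and that of sWAT over muscle with TMM.

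ABCC4, which exports cyclic nucleotides and prostaglandins, gave 14 oWAT and 8 sWAT counts, against 4 in liver and 7 in muscle, and was called in no pairing.

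In all, 3 of 19 members were higher in oWAT than in muscle (11.4% of all genes were): ABCA8, ABCD2 and ABCG1. For sWAT over muscle it was 5 of 20 (11.2% of all genes), these 3 with ABCA1 and ABCC3, the last at 5.50-fold (2.06 to 18.5) and lost with each of the 3 other scalings. No member was lower in oWAT than in muscle, out of 17 (8.3% of all genes were), and 1 of 17 was lower in sWAT (9.23% of all genes were). With TMM, ABCA5 was lower than muscle in both fat libraries and ABCF3 in sWAT.

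The peroxisomal pair ABCD2 and ABCD3 did not share a leading library: ABCD3 was highest in liver and ABCD2 in oWAT. ABCD4, which serves cobalamin release from the lysosome, had 57 counts in liver against 19 in muscle, 42 in oWAT and 23 in sWAT. With library totals it was called in no pairing.

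The balance of this pair can be read inside each library, free of scaling. Of the reads of ABCD2 and ABCD3 together, ABCD2 made up 63.5% in oWAT (49.0 to 76.4) and 39.3% in sWAT (26.5 to 53.2), against 0% in liver (0 of 259, interval up to 1.41%) and 4.35% in muscle (0.11 to 21.9). The intervals of both fat libraries lay above those of liver and muscle.

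**Figure D4:**
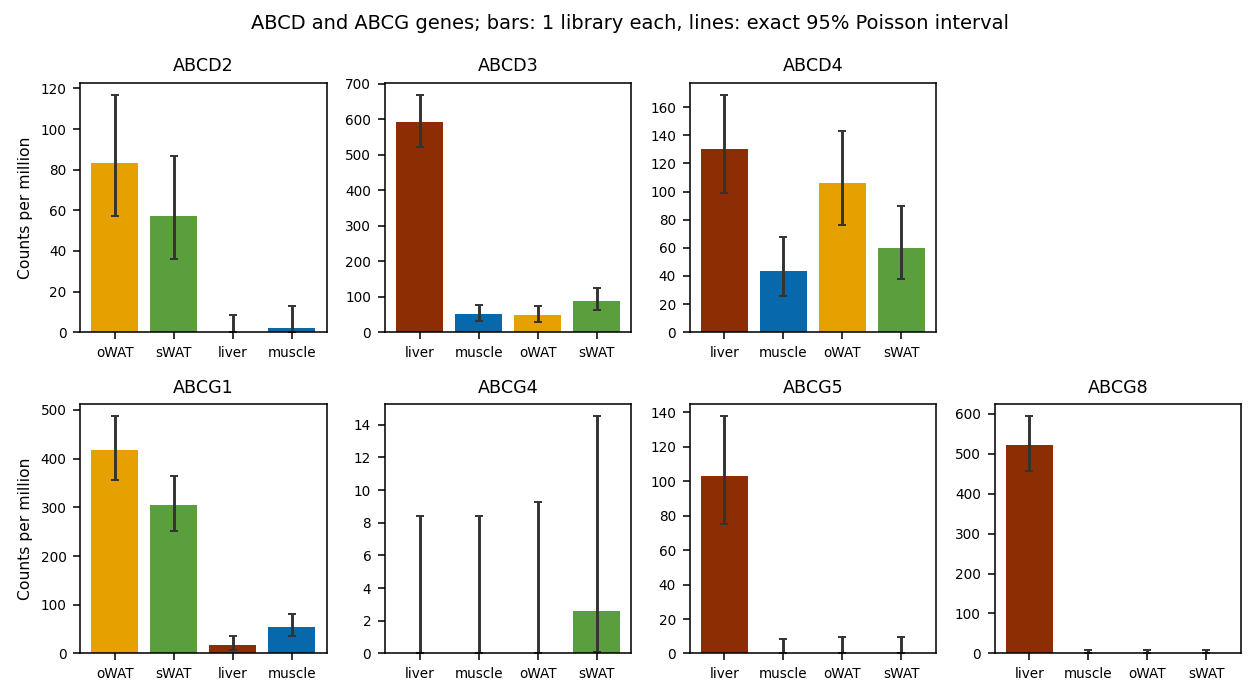
CPM of 3 ABCD and 4 ABCG genes, 1 bar per library on axes that start at 0 and differ between panels; lines are exact 95% Poisson intervals. ABCD3, ABCG5 and ABCG8 peak in liver (592, 103 and 521 CPM), and ABCD2 and ABCG1 in oWAT (83.2 and 418 CPM).

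Of 17 members that reached 10 counts in muscle, 0 exceeded all 3 other libraries; over all genes the rule called 6.71%. The median log2 ratio of muscle to the highest other library was -1.65 over the 32 members and -0.91 over all genes measured. The closest to a call was ABCA5, a lysosomal member, with 18 counts in muscle against 0 in liver, 2 in oWAT and 3 in sWAT. Its ratio to sWAT was 5.24 (1.53 to 27.8); it was called with TMM, at 6.98 (2.04 to 37.0). ABCC5 had its highest level in muscle, 168 CPM, 1.45 times that of oWAT (0.99 to 2.15), an interval that includes 1. ABCB6, a porphyrin transporter of mitochondria and other membranes, had 40 counts in muscle against 24 in liver, 16 in oWAT and 30 in sWAT.

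Among the ribosome-associated genes, ABCE1 had the smallest spread of the 29 members. ABCE1, which splits ribosomes for recycling, had 42 counts in muscle, 37 in liver, 36 in oWAT and 34 in sWAT, or 84.6 to 95.5 CPM. The fold of the highest over the lowest was 1.13 (0.71 to 1.81). Its level in liver was 0.89 times that of muscle with library totals (0.55 to 1.41) and 1.203 times with TMM, with which it was also 1.87 times that of oWAT (1.15 to 3.05). ABCF1, a factor of translation initiation, had 66 counts in muscle against 37 in liver, 56 in oWAT and 31 in sWAT. ABCF3, a relative of yeast GCN20 in translation control, had 86 counts in muscle against 57 in liver, 59 in oWAT and 28 in sWAT. The summed ABCF level in sWAT was 0.44 times that in muscle (0.32 to 0.60), and in liver 0.62 times (0.48 to 0.81), or 0.84 times with TMM (0.65 to 1.10). In the companion list of ribosome recycling and translation control, 0 of 12 measured genes were called in any of the 6 comparisons, each of which called between 0.767% and 11.8% of all genes.

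The genes ABCA8, ABCA9, ABCA6 and ABCA5 stand in a row in the RefSeq table, and their leading libraries were not the same. ABCA6 was highest in liver (235 CPM), ABCA5 in muscle (40.9 CPM) and ABCA8 in sWAT (406 CPM). ABCA9 had 10 counts in sWAT, 5 in oWAT, 1 in liver and 5 in muscle. ABCA10, which that table does not name, had 15 counts in sWAT, 6 in oWAT, 7 in liver and 3 in muscle. ABCA9 and ABCA10 were called in no pairing. These genes resemble each other in sequence, so reads assigned between them carry that uncertainty.

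ABCB10, which is tied to haem synthesis, had 10 counts in liver against 13 in muscle, 9 in oWAT and 6 in sWAT. No pairing was called. From the highest to the lowest library, its ratio was 1.89 (0.67 to 6.07), an interval that includes 1. Of 13 measured companion genes of mitochondrial haem and iron-sulfur synthesis, 2 were higher in liver (10.8% of all genes were), with a list median log2 ratio to the highest other library of -0.14. They were ALAS1, the entry enzyme of haem synthesis (3.48-fold over muscle, 2.30 to 5.42), and ALAD, which acts after it (6.04-fold over sWAT, 3.95 to 9.59).

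Between the fat libraries no member was called. Of 19 members with at least 10 oWAT counts, 0 were higher in oWAT than in sWAT, where 1.43% of all genes were, and of 20 with at least 10 sWAT counts, 0 were lower in oWAT, where 0.767% of all genes were. With the bound lowered to 1, 4 of 19 were higher in oWAT, where 16.1% of all genes were: ABCD4, ABCF1, ABCF3 and ABCG1. The largest of these ratios was that of ABCF3, with 59 counts in oWAT and 28 in sWAT, at 2.04 (1.28 to 3.32). ABCG1 stood at 1.37 (1.08 to 1.75). With the same bound, 6 of 20 were lower in oWAT, where 8.99% of all genes were: ABCA1, ABCA7, ABCB6, ABCC1, ABCC9 and ABCD3. ABCC9 had 5 counts in oWAT and 18 in sWAT, a ratio of 0.27 (0.078 to 0.75), and ABCC1 had 12 and 31, a ratio of 0.37 (0.18 to 0.75).

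**Figure D5:**
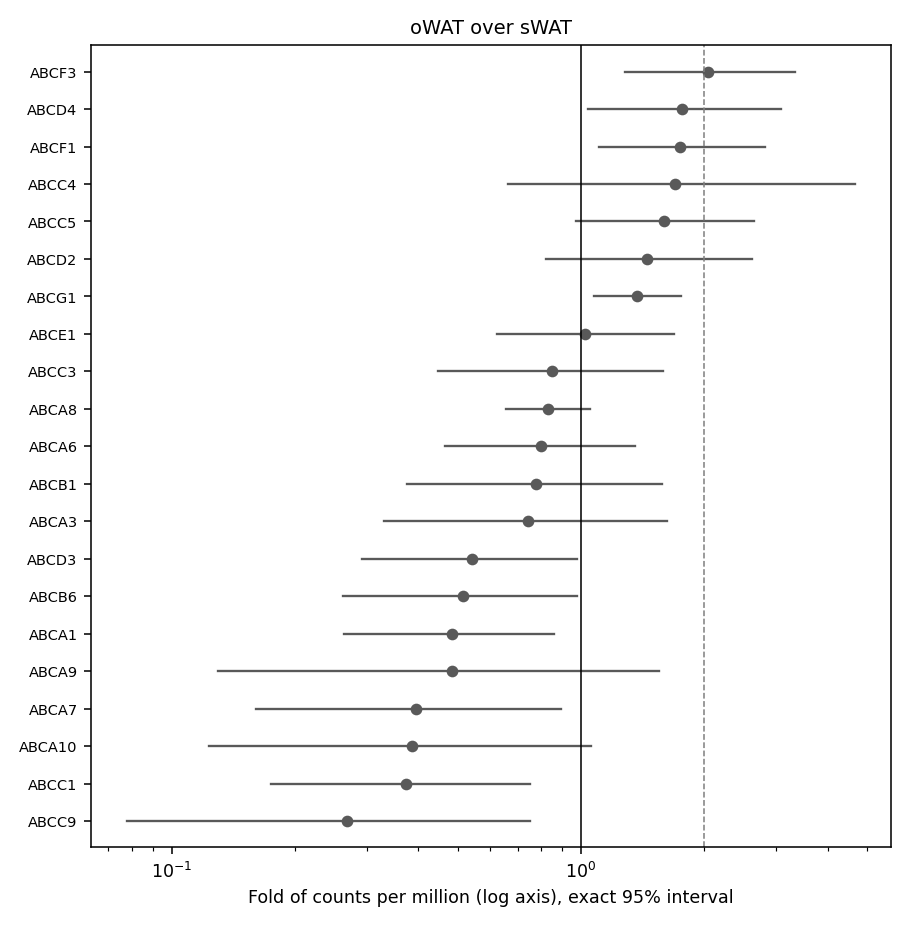
Fold of CPM in oWAT over sWAT on a log axis, for named members with at least 10 counts in either library, with exact 95% intervals; the solid line marks 1 and the dashed line 2. No interval lies wholly above 2; ABCF3 (2.04) and ABCG1 (1.37) lie above 1, and ABCC9 (0.27) and ABCC1 (0.37) lie below it.

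Marker sums of other cell types differed between these libraries as well. The 6 mesothelium markers summed to 3901 CPM in oWAT and were all at 0 in sWAT. The 7 fibroblast markers summed to 20104 CPM in oWAT and 65869 CPM in sWAT, and the 7 endothelium markers to 2208 CPM in oWAT and 3907 CPM in sWAT, all with counts for every marker. Most of the fibroblast sum came from COL1A1 (7571 CPM in oWAT and 31397 CPM in sWAT) and COL3A1 (7689 and 29404 CPM). DCN (2336 CPM in oWAT and 2191 CPM in sWAT) and DPT (728 and 547 CPM) were higher in oWAT, the other fibroblast markers in sWAT. The part of these cell types in the ABC values was not tested.

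Companion genes of the liver members were counted by list. Over all genes, 533 were called higher in liver, of 4944 with at least 10 counts there and 10127 measured. Of 9 measured genes of bile salt uptake and handling, 6 were higher in liver (10.8% of all genes were), including the bile salt uptake carrier SLC10A1 (101 counts against 0 in the other libraries) and the nuclear receptor NR1H4, which senses bile acids (99 against 0). Their median log2 ratio to the highest other library was 5.96, where all genes measured had -1.34. Of 11 measured genes of conjugation and its regulators, 5 were higher in liver, with a median of 0.94. Among them were NR1I2, a xenobiotic-sensing receptor (57.1-fold over oWAT, 15.5 to 477), and UGT1A1, which conjugates bilirubin (383 counts against 0). Of 15 genes of peroxisomal fatty acid oxidation, 7 were higher in liver, with a median of 1.52, among them EHHADH (32.8-fold over oWAT, 19.4 to 60.4) and ACAA1 (7.13-fold, 4.15 to 13.1). The bile salt and conjugation lists each held 1 gene lower in liver, SLCO2B1 and GSTP1 (11.8% of all genes were).

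Markers of bile duct cells, which also carry some of these transporters, were scarce in the liver library. The 6 cholangiocyte markers summed to 7 counts in liver (4 of 6 detected, EPCAM and SOX9 at 0), against 21 in muscle (2 of 6), 334 in oWAT (4 of 6) and 75 in sWAT (2 of 6). SPP1, which is not specific to bile duct cells, gave 3 of the 7 liver counts, against 15 for muscle, 282 for oWAT and 74 for sWAT. KRT19 is also a mesothelium marker. The part of bile duct cells in the liver values was not tested.

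The cholesterol efflux list was mixed. Of its 15 measured genes, 1 was higher in liver (10.8% of all genes were) and 2 in the fat libraries (4.22%). APOA1, the acceptor of lipid from ABCA1, had 234 counts in liver against 0 in muscle, 1 in oWAT and 0 in sWAT. PLTP, the phospholipid transfer protein, gave 89 oWAT and 77 sWAT counts against 3 in liver and 9 in muscle, and LIPA, the lysosomal cholesterol ester hydrolase, 561 and 420 against 111 and 34. The list median was -0.89 for liver against the highest other library and -0.67 for the fat libraries, where all genes measured had -1.34 and -0.22. In the peptide transport and loading list, which holds TAP1 and TAP2, family members under other names, 1 of 9 measured genes was called. It was B2M, higher in oWAT and sWAT (3.75-fold over liver, 3.06 to 4.61), a comparison that called 4.22% of all genes.

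ABCC9 was followed to its channel partners. KCNJ8, a pore subunit that pairs with SUR2 and the sole measured gene of that list of 2, was named after its values were seen. It had 21 counts in liver against 2 in muscle, 6 in oWAT and 4 in sWAT, 3.17-fold its oWAT level (1.24 to 9.61). Both genes are known from mural cells of vessels. The 7 smooth muscle and pericyte markers, KCNJ8 included, summed to 142 CPM in liver (6 of 7 with counts, NOTCH3 at 0), against 1098 CPM in muscle, 1210 CPM in oWAT and 1886 CPM in sWAT, with counts for all 7 there. ABCC9 had its highest level in the library where this marker sum was lowest, and the part of mural cells was not tested. ABCC8, the other sulfonylurea receptor, had 5 counts in oWAT, 1 in sWAT and 0 in liver and muscle.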

How the data were processed

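Per the labels' protocols, RNA of 5 monkeys was pooled per tissue and the full-length libraries were sequenced on PacBio Sequel II; minimap2 2.24 is named in the submitters' processing notes. How reads were counted, and on which build, annotation and strand, is not stated in the labels or those notes. The authors' deposited values are unnormalized counts of whole reads by gene; genes at 0 are not listed, and 0 was filled in for them. An entry that names no gene held 14.3% to 19.5% of each file and was left out of totals. Files were assigned to tissues by the labels; the file names say eWAT and iWAT where the labels say oWAT and sWAT.

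Folds, intervals and calls were computed as stated above, with 0.5 counts added for median log2 ratios. Marker and companion lists and the naming rule (members with at least 10 counts in a library in full, others by name) were set with earlier results of these data known, as was the choice of members. Other settings tried were TMM factors from edgeR 4.0.16 and size factors from DESeq2 1.42.0 (used for scaling alone), library totals that omit each library's 10 top genes, no minimum count, a bound of 1 and a 99% interval; the same scalings of summed counts were added after seeing the data. The calling rule was tested on simulated counts that held counting error alone, with no spread between animals. Such a test cannot show how the calls would hold between animals. Of the members, 38 matched the RefSeq table. Of 40 matching names, 1 was left out, and some of the 39 members are included in counts and sums but not reported here one by one. Python 3.11.15, SciPy 1.17.1 and R 4.3.3 were used.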

Additional observations from a re-analysis of the deposited data

How the results depend on the processing

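TMM scaling raised log2 folds of liver by 0.44 over muscle, 1.005 over oWAT and 0.86 over sWAT, and moved oWAT over muscle by -0.56; DESeq2 size factors gave 0.44, 0.99, 0.80 and -0.55. The 6 liver calls and the 2 fat calls were kept under these and under every other alternative run. Counts of called members moved by over 1.5 times for muscle over all others, 1 with TMM (where 7.59% of all genes were called) and 2 with a bound of 1 (13.9%). With a bound of 1 they also moved for lower in liver (4, where 32.8% of all genes were called), higher in oWAT than in sWAT (4, 16.1%) and lower in oWAT (6, 8.99%). Each of these counts was 0 otherwise. Over all genes, the scalings moved the calls most, in proportion, for the fat libraries (233 with library totals, 68 with TMM, 71 with DESeq2). Calls for lower in liver fell (545, 282 and 287), and those for higher in liver rose (533, 772 and 759). Several ratios changed direction with the scaling. Among them were ABCE1 in liver over muscle (0.89 with library totals, 1.203 with TMM, 1.202 with DESeq2), over oWAT (0.93, 1.87 and 1.85) and over sWAT (0.95, 1.73 and 1.67), ABCF3 in liver over oWAT (0.88, 1.76 and 1.74), the ABCA sum in liver over oWAT (0.85, 1.72 and 1.70) and over sWAT (0.63 with library totals, 1.14 with TMM, 1.10 with DESeq2) and the ABCF sum in liver over oWAT (0.74, 1.49 and 1.47); these values differ in the scaling factors alone. Of 93 pairings of single members with an interval off 1, 2 turned: ABCF1 in liver over oWAT (0.60 with library totals, 1.203 with TMM) and ABCA1 in liver over sWAT (0.55 and 1.003). All 28 subfamily shares stayed within their intervals when members under 10 counts in a library were left out. No paired analysis was possible because each tissue has 1 library. Members under 10 counts could not be called at this depth.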
